A study of Canis lupus familiaris with 30 samples.

Results

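Described here are 5 dog genes whose level was lower in cancer-associated stroma (CAS) than in the matched normal stroma of each of 15 dogs with simple mammary carcinoma. They are ENSCAFG00000008537, ENSCAFG00000014049, ENSCAFG00000005887, ENSCAFG00000000751 and ENSCAFG00000009884, and they are 5 of the 18582 genes listed in the deposited table and 5 of the 10472 that passed a filter on low counts. The genes were chosen by their measured levels: their normalised level was lower in CAS than in normal stroma of all 15 dogs, and they had the largest negative log2 fold changes among the genes with this property. The difference between CAS and normal stroma is therefore what selected them, and it is described below without a test. The files give the genes by Ensembl ID and do not pair the IDs with names, so what each gene encodes is not stated here, and no marker genes of cell types could be looked up to check the labelled tissue.

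The stroma of the mammary gland is the connective tissue around the ducts and lobules. It holds fibroblasts, fat cells, blood and lymph vessels, nerves and immune cells in an extracellular matrix, and it supports the glandular epithelium. Close to a carcinoma this tissue is remodelled: fibroblasts become activated, the matrix is rebuilt and other cells enter or leave, and such stroma is known to influence the growth and spread of tumour cells. Each library is bulk tissue, in which fewer cells of a type and less RNA per cell cannot be told apart.

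All 30 libraries came from female dogs with spontaneous carcinomas of the simple type that had been removed by surgery, fixed in formalin and embedded in paraffin. Areas of CAS, and of unaltered stroma a few millimetres away on the same slides, were cut out by laser-capture microdissection (LCM), and 4 ng of RNA per sample were sequenced with a stranded total RNA kit, giving 15 CAS and 15 normal stroma libraries, 1 of each per dog. The dogs were 4 to 14 years old and the tissue blocks 3 to 27 months. The labels call 6 dogs neutered and say nothing about the other 9. Of the carcinomas 8 were tubular, and the other 7 comprised 3 tubulo-papillary, 2 cystic-papillary, 1 tubular-solid and 1 cribriform tumour. Each dog is a separate animal, so the spread between libraries of 1 stroma is spread between dogs together with the spread of the procedure. Library totals, as estimated counts, reached from 1361951 to 5572761 for CAS and from 29284 to 3932370 for normal stroma. In normal stroma, 2 libraries held under 100000 counts, those of dog 128 (29284) and dog 136 (32528), and the next lowest held 617177. Correlations between the genes, and some other results that rest on these 2 libraries, are given with and without them. The comparisons by neuter status and subtype within normal stroma include them. Levels are given as CPM (counts divided by library size and rescaled) after TMM scaling, or as log2 CPM with a prior count of 2; gene length was not used, so levels are compared between libraries for 1 gene and not between genes.

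ENSCAFG00000008537 had between 74.8 and 963 CPM in normal stroma, with a median of 181, and between 0 and 73.0 CPM in CAS, with a median of 2.84. Its 2 ranges did not overlap after TMM scaling, but with library totals they did: the CAS level of dog 128 was then 83.5 CPM, above the normal stroma of dogs 126 (51.3 CPM), 135 (59.3 CPM), 132 (61.1 CPM) and 109 (68.3 CPM). The mean was 229 ± 227 CPM (SD, n = 15) in normal stroma and 11.1 ± 18.4 CPM (SD, n = 15) in CAS, and the fitted log2 fold change was -4.63 (SE 0.664). The highest CAS value belonged to dog 128, and the next highest was 21.7 CPM among the 13 dogs with deeper normal stroma libraries.

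ENSCAFG00000014049 was between 27.4 and 387 CPM in normal stroma (median 173) and between 0 and 30.2 CPM in CAS (median 5.41). A single normal stroma library, that of dog 128 with 2 counts, lay below the highest CAS library, and without dogs 128 and 136 the ranges were separate, with a lowest normal stroma level of 56.5 CPM; with library totals they were separate in all 15 dogs (36.4 against 29.4 CPM). Means were 181 ± 105 CPM and 7.46 ± 8.64 CPM (SD, n = 15 each), with a fitted log2 fold change of -4.49 (SE 0.537), and of -5.13 when the dog was a replicate block in place of the surrogate variables.

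ENSCAFG00000005887 was between 27.4 and 536 CPM in normal stroma (median 216) and between 0 and 47.9 CPM in CAS (median 9.81). Here 2 normal stroma libraries did not exceed the highest CAS library, and 1 of the 13 deeper ones did not. The means were 228 ± 143 CPM and 15.5 ± 14.5 CPM (SD, n = 15 each), and the fitted log2 fold change was -3.84 (SE 0.50).

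ENSCAFG00000000751 had at least 620.3 CPM in every normal stroma library, with a median of 2026 and a highest value of 3724, and at least 1162 counts in each of the 13 deeper ones. In CAS it ranged from 5.66 to 730.5 CPM with a median of 88.9, and it was the only 1 of the 5 genes with counts in all 15 CAS libraries, from 19 to 3783. The ranges overlapped by 1 normal stroma library, that of dog 136, and were separate in the 13 other dogs' deeper libraries, where the lowest normal stroma level was 1479 CPM; with library totals they were separate in all 15 dogs (1126 against 845 CPM). Means were 2070 ± 810 CPM in normal stroma and 159 ± 197 CPM in CAS (SD, n = 15 each), with a fitted log2 fold change of -3.62 (SE 0.527), and of -4.47 with the dog as a replicate block.

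ENSCAFG00000009884 was the least cleanly separated of the 5. It had between 54.9 and 881 CPM in normal stroma (median 233) and between 0 and 170 CPM in CAS (median 8.07), and 6 of the 15 normal stroma libraries did not exceed the highest CAS library. Among the 13 deeper normal stroma libraries, 4 did not. The highest CAS value came from dog 137, whose own normal stroma held 382 CPM, and the overlap rests largely on this library. The next highest CAS value, 55.8 CPM in dog 130, lay above the normal stroma of dog 128 alone (54.9 CPM, 4 counts). The means were 292 ± 240 CPM and 21.7 ± 43.3 CPM (SD, n = 15 each), and the fitted log2 fold change was -3.52 (SE 0.682), against -4.55 with the dog as a replicate block.

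**Figure D1:**
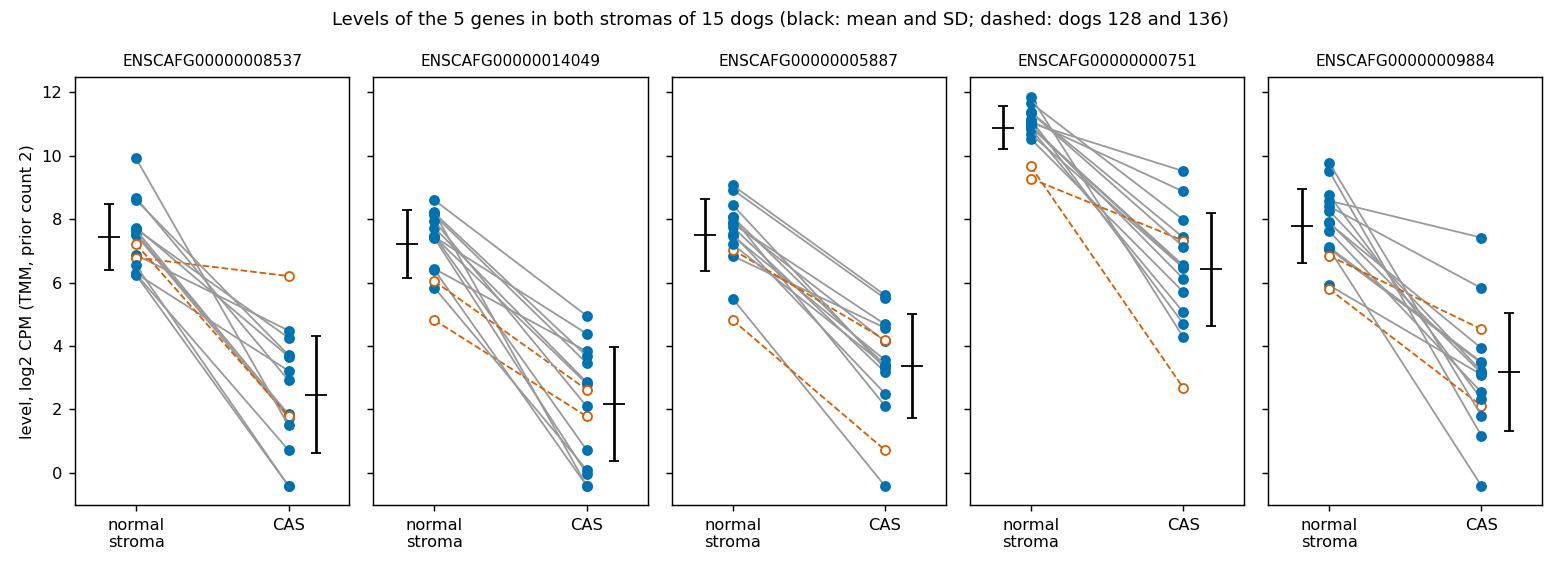
Level of each of the 5 genes in normal stroma and CAS of the same dog, as log2 CPM (TMM, prior count 2); each line joins the 2 libraries of 1 dog, black marks show mean and SD over 15 dogs, and dashed lines with open circles mark dogs 128 and 136, whose normal stroma libraries hold 29284 and 32528 counts. All 75 lines fall from normal stroma to CAS, which is the property that selected the genes, and the CAS points spread more widely than the normal stroma points.

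The rule was met by 35 of the 10472 genes tested (0.334%), and the 5 genes are the first 5 of these when ordered by log2 fold change in the fit with surrogate variables. With the dog as a replicate block the order among the 5 changed, with ENSCAFG00000014049 first and ENSCAFG00000005887 (-4.17) last. The edge of the list is not a gap: ENSCAFG00000008354, the next gene in that order, had a log2 fold change of -3.51 (SE 0.483), against -3.52 for the last of the 5, and 562 ± 304 CPM in normal stroma and 42.1 ± 31.8 CPM in CAS (SD, n = 15 each). A further 114 genes were lower in CAS in 14 of 15 dogs, and 202 genes were lower in all 13 dogs other than 128 and 136, against the 35 when these 2 dogs are counted. Over all genes in the fit, the log2 fold change had a median of 0.22. The direction of the 5 genes did not depend on the scaling, since each was also lower in CAS in 15 of 15 dogs when counts were divided by library totals or by DESeq2 size factors.

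Residual expression in CAS was expressed as the CAS level in percent of the normal stroma level of the same dog. Its median over the 15 dogs was 1.67% for ENSCAFG00000008537, 3.62% for ENSCAFG00000014049, 4.82% for ENSCAFG00000000751, 6.20% for ENSCAFG00000005887 and 6.20% for ENSCAFG00000009884. The last of these moved most with other settings, to 3.38% without dogs 128 and 136 and to 4.72% with library totals. Over the 75 pairs of gene and dog the median was 3.68%, and 42 pairs lay under 5%, 18 between 5 and 10%, and 15 over 10%. Levels over 25% were met in 4 pairs and over 50% in 1 pair.

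No count at all was found in 6 of the 75 CAS measurements. With a limit of 3 counts, ENSCAFG00000008537 may have been present at up to 2.0% of the normal stroma level in dog 126 and 1.03% in dog 135, and ENSCAFG00000014049 at up to 0.525% in dog 131 and 1.22% in dog 132. For ENSCAFG00000005887 in dog 126 the limit was 3.37%, and for ENSCAFG00000009884 in dog 131 it was 1.17%. In the other measurements transcripts were still counted in CAS, with medians over the 15 libraries of 13 counts for ENSCAFG00000008537 and ENSCAFG00000014049, 30 for ENSCAFG00000005887, 271 for ENSCAFG00000000751 and 29 for ENSCAFG00000009884. These limits, and the intervals that follow, cover counting error only.

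The exact 95% interval of a CAS level, conditional on the total of both counts, shows how precise each percentage is; it is no test of the fall, which the rule had fixed. The interval that reached 100% was that of ENSCAFG00000008537 in dog 128, with 8 counts in the shallow normal stroma library and 245 counts in CAS, where the level left in CAS was 66.5% (33.2 to 156%). That value depended on the scaling of a library of 29284 counts, being 30.6% by library totals and 46.1% by DESeq2 size factors. Other values of dogs 128 and 136 were also loosely bounded, such as 9.77% (2.02 to 92.9%) for ENSCAFG00000014049 in dog 128, where normal stroma held 2 counts. Before any scaling, the raw count was higher in CAS than in normal stroma in 9 of the 75 pairs, and only 1 of these lay outside dogs 128 and 136: ENSCAFG00000009884 in dog 137, with 450 counts in normal stroma and 518 in CAS.

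**Figure D2:**
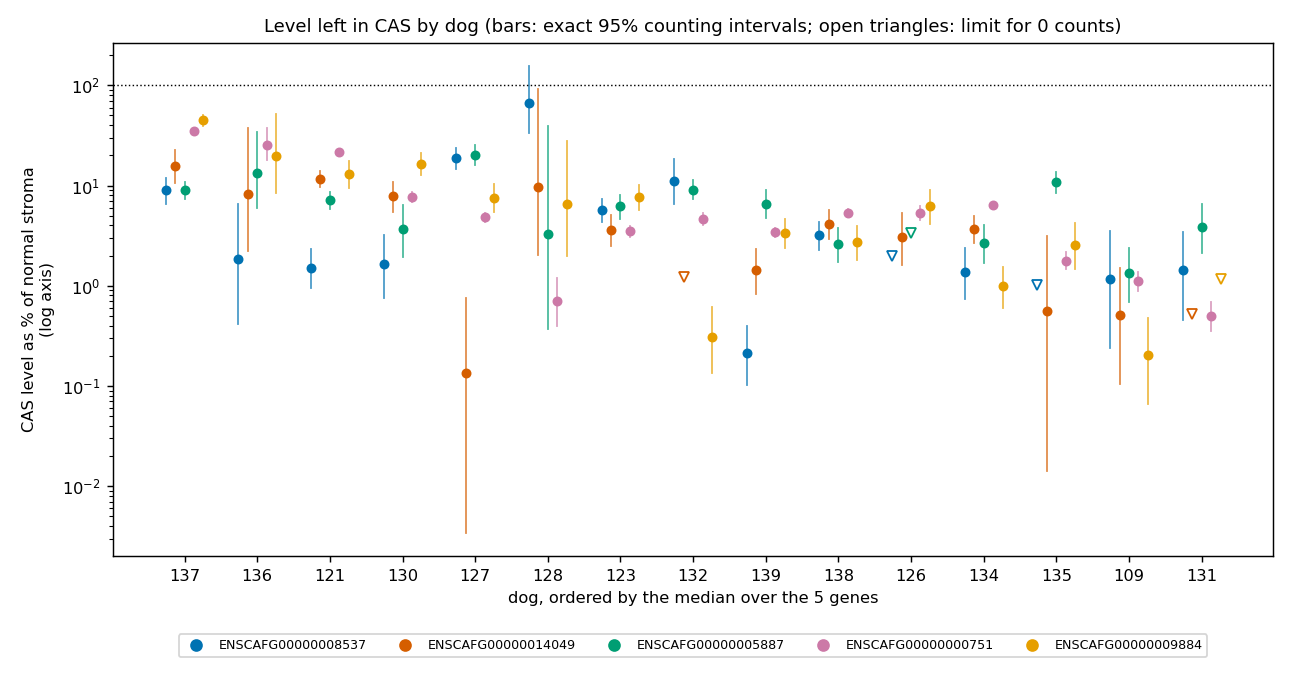
CAS level of each of the 5 genes as percent of normal stroma (log axis) in each of the 15 dogs, ordered by the median over the genes; bars are exact 95% intervals for counting error and open triangles give the limit that 0 counts allow. Dog 137 is at the left with a median of 15.7% and dog 131 at the right with 0.501%, and a single bar, that of ENSCAFG00000008537 in dog 128, reaches the dotted line at 100%.

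Dogs differed in how much of the 5 genes was left. The median over the 5 genes was 15.7% in dog 137, 13.5% in dog 136, 11.7% in dog 121, 7.73% in dog 130 and 7.59% in dog 127, and it was 0.501% in dog 131, 1.12% in dog 109 and 1.78% in dog 135. The place of dog 136 depends on the scaling of its shallow normal stroma library, with 4 to 38 counts for these genes. Its levels were 1.84 to 25.6% after TMM scaling. By library totals they were 0.782, 3.52, 5.72, 10.9 and 8.30%, in the order in which the genes were first named. Dog 137, a neutered dog with a tubular carcinoma, was among the 3 highest CAS libraries for 5 of 5 genes, and its residual levels reached from 8.94% for ENSCAFG00000005887 to 35.0% (33.1 to 37.1%) for ENSCAFG00000000751 and 44.6% (39.2 to 50.7%) for ENSCAFG00000009884. In dog 121, ENSCAFG00000000751 was left at 21.5% (20.6 to 22.4%) while ENSCAFG00000008537 was left at 1.51% (0.949 to 2.30%). The profile was thus not the same across genes even within a dog. In dogs 109 and 131 all 5 genes lay under 5%.

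The same measure was computed for the other 30 genes that were lower in CAS in all 15 dogs, as a description of the libraries. Their median per dog was between 18.7 and 48.3%, with 38.3% in dog 137, 48.3% in dog 136, 38.4% in dog 121 and 44.4% in dog 135. Dogs 136, 121 and 137 were thus among the 4 highest for these genes also, whereas dog 135 was second for them and 13th for the 5 genes. The value of dog 136 again rests on its shallow normal stroma library after TMM scaling.

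The 5 genes varied more between dogs in CAS than most genes did. Without dogs 128 and 136, the SD of log2 CPM over 13 dogs was 1.64 for ENSCAFG00000008537, 1.93 for ENSCAFG00000014049, 1.58 for ENSCAFG00000005887, 1.55 for ENSCAFG00000000751 and 1.95 for ENSCAFG00000009884, against a median of 0.60 over all genes tested. Since low genes have larger SDs, each was also set beside the genes whose mean log2 CPM lay within 0.5 of its own, and it ranked at the 96.0, 98.1, 96.6, 98.9 and 99.0 percentile of these, in the same order. These are descriptions of genes that the choice of low CAS levels had already picked out.

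In normal stroma the picture was uneven. ENSCAFG00000000751 had an SD of 0.38 over the 13 dogs, at the 11.8 percentile of the 17 genes near its level, so this gene was steady between dogs in normal stroma and variable in CAS. The other 4 had SDs of 1.10 for ENSCAFG00000008537, 0.81 for ENSCAFG00000014049, 0.92 for ENSCAFG00000005887 and 1.07 for ENSCAFG00000009884, at the 96.7, 90.3, 92.0 and 93.3 percentile of the genes near their levels. For ENSCAFG00000008537 the highest normal stroma library, that of dog 139 with 2317 counts and 963 CPM, lay far above its median of 181 CPM.

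**Figure D3:**
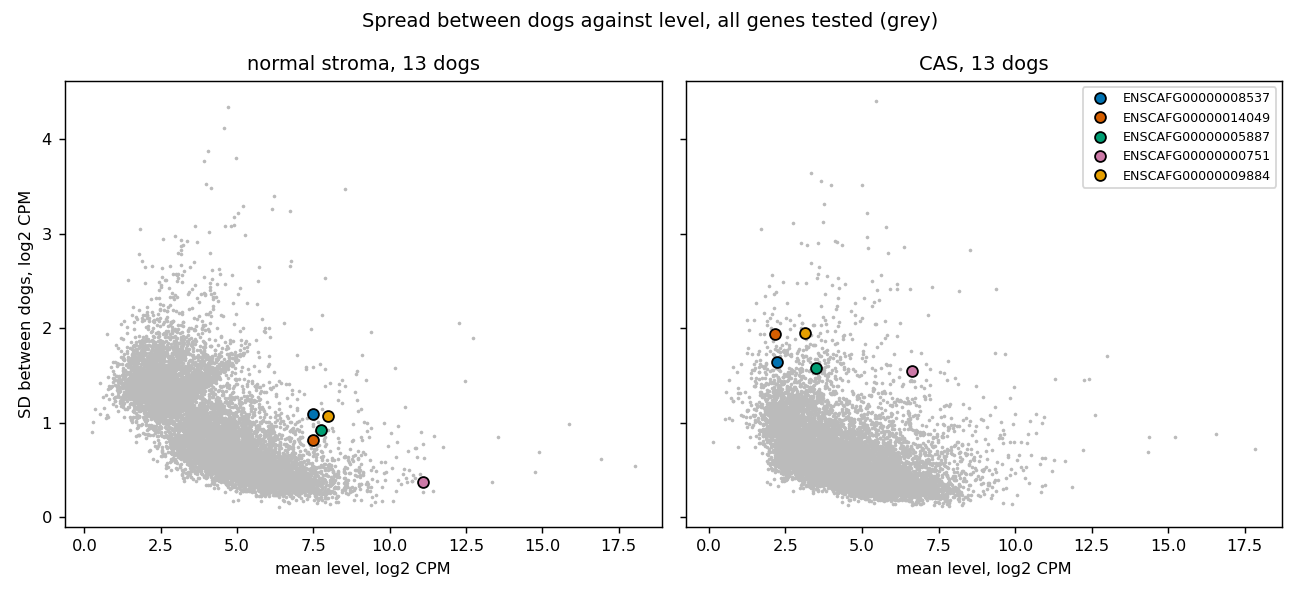
SD between dogs of log2 CPM against mean log2 CPM for all 10472 genes tested (grey) and the 5 genes (coloured) in the 13 dogs whose normal stroma library holds over 100000 counts, with normal stroma on the left and CAS on the right. In CAS the 5 genes lie in the upper part of the cloud with SDs from 1.55 to 1.95. In normal stroma ENSCAFG00000000751 has an SD of 0.38, below the median of 0.50 of the 17 genes near its level.

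Co-variation was measured as the correlation of log2 CPM across the 15 dogs, within each stroma, for the 10 pairs of genes. The rule sets the direction within a dog and not the order of the dogs within a stroma. Of the 20 relations, 4 had a Benjamini-Hochberg adjusted permutation p below 0.05 by Pearson's r and 2 by Spearman's rho, with p-values adjusted over the 20.

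In CAS, the levels of 3 of the genes were correlated from dog to dog by Pearson's r, and 1 of the 3 pairs also passed by rho; without dogs 128 and 136, 0 of the 20 relations passed by rho, the lowest adjusted permutation p being 0.0828. ENSCAFG00000000751 and ENSCAFG00000009884 had r = 0.72 (permutation p = 0.00318, adjusted 0.0318) and rho = 0.64 (permutation p = 0.0125, adjusted 0.0658), and r was 0.67 without the 2 libraries farthest from the median. For ENSCAFG00000014049 and ENSCAFG00000009884, r was 0.67 (permutation p = 0.00522, adjusted 0.0348) and rho 0.62 (permutation p = 0.0164, adjusted 0.0658), with r = 0.53 without the 2 farthest. ENSCAFG00000014049 and ENSCAFG00000000751 had r = 0.65 (permutation p = 0.00825, adjusted 0.0412) and rho = 0.72 (permutation p = 0.00299, adjusted 0.0299), with r = 0.67 without the 2 farthest; with a prior count of 0.5 its r was 0.59 (adjusted permutation p = 0.0855). Leaving out any 1 dog kept these 3 values of r between 0.59 and 0.78. Without dog 137, the highest CAS library for ENSCAFG00000000751 and ENSCAFG00000009884, their r was 0.61. As background, the r of these pairs stood between the 98.5 and 99.6 percentile of the r of the same gene with all other 10471 genes. Some low values behind these r lie at the count floor. ENSCAFG00000014049 had 3 counts or fewer in 5 of the 15 CAS libraries, and ENSCAFG00000009884 had 0 counts in 1. ENSCAFG00000000751 had at least 19 counts in each. A count of 0 is placed at a log2 CPM of -0.41 by the prior count.

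Without dogs 128 and 136 the CAS values of r were 0.77 for ENSCAFG00000000751 with ENSCAFG00000009884 (adjusted permutation p = 0.0308), 0.76 for ENSCAFG00000014049 with ENSCAFG00000000751 (adjusted permutation p = 0.0308) and 0.67 for ENSCAFG00000014049 with ENSCAFG00000009884 (adjusted permutation p = 0.0541). The other members did not join this group by the test. ENSCAFG00000008537 had r between -0.03 and 0.21 with the other 4 genes in CAS, and these values were set in part by its high CAS level in dog 128, since without that dog its r was 0.43 with ENSCAFG00000000751 and 0.57 with ENSCAFG00000005887. ENSCAFG00000005887 had r = 0.47 with ENSCAFG00000000751 (adjusted permutation p = 0.185) and r = -0.13 with ENSCAFG00000014049 (adjusted permutation p = 0.765).

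In normal stroma a single pair passed. ENSCAFG00000014049 and ENSCAFG00000000751 had r = 0.76 (permutation p = 0.00121, adjusted 0.0242) and rho = 0.78 (permutation p = 0.00086, adjusted 0.0172), but r was 0.58 without dogs 128 and 136 (adjusted permutation p = 0.148), and rho was then 0.69 (adjusted permutation p = 0.110), so neither passed without the shallow libraries. As background, the median r with all other genes was 0.31 over 15 dogs and -0.10 over 13 for ENSCAFG00000014049, 0.39 and -0.20 for ENSCAFG00000000751, and 0.087 and -0.0072 for ENSCAFG00000008537. The next highest pair was ENSCAFG00000005887 with ENSCAFG00000009884 (r = 0.58, adjusted permutation p = 0.0855), which fell to 0.38 without the 2 dogs. In both stromas, then, ENSCAFG00000014049 and ENSCAFG00000000751 were the pair with the highest rho. By r they were highest in normal stroma only. In CAS their r of 0.65 was below 0.72 (ENSCAFG00000000751 with ENSCAFG00000009884) and 0.67 (ENSCAFG00000014049 with ENSCAFG00000009884). Among the r with all other genes in normal stroma, theirs stood at the 98.3 percentile for ENSCAFG00000014049 and 89.7 for ENSCAFG00000000751 over 15 dogs. Over 13 dogs it was 97.3 for both.

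**Figure D4:**
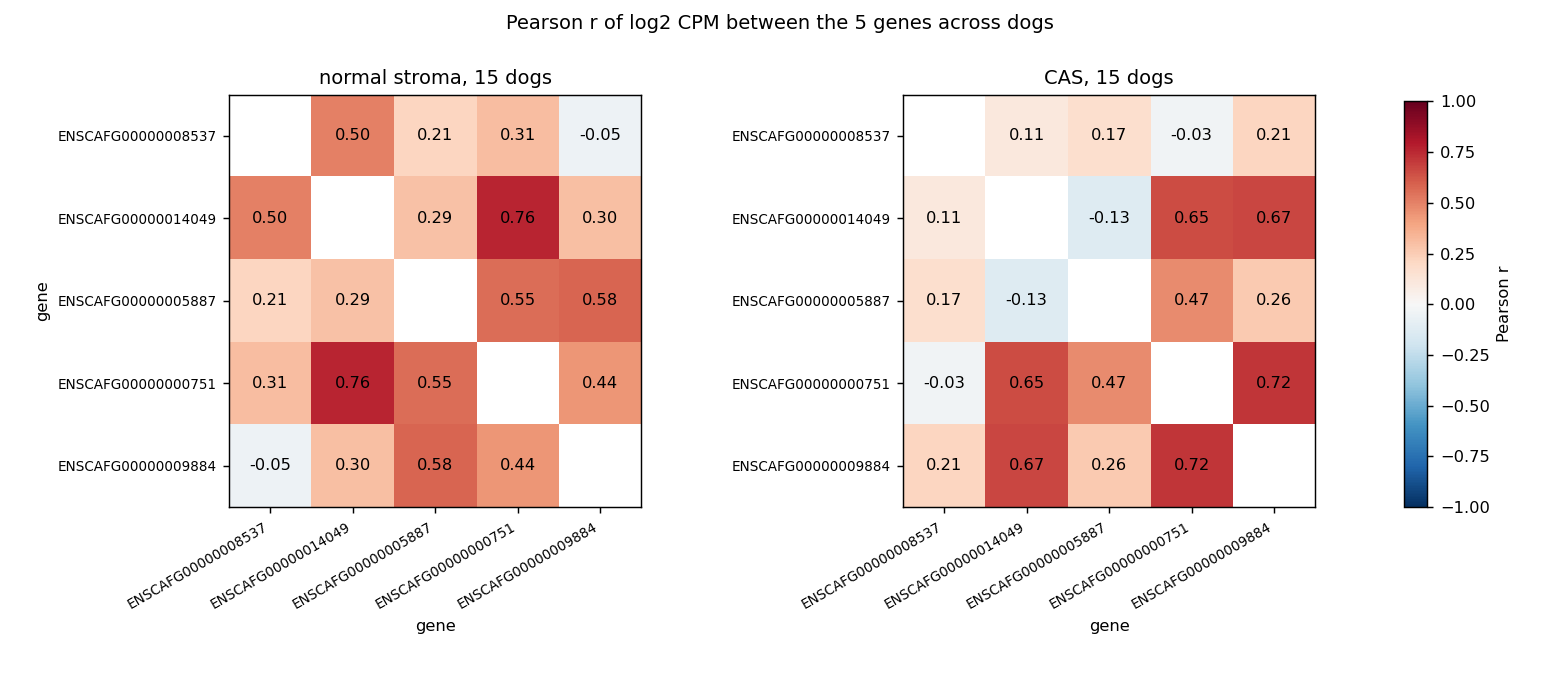
Pearson's r of log2 CPM across 15 dogs for each pair of the 5 genes, in normal stroma on the left and CAS on the right, on a colour scale from -1 to 1. In CAS the 3 highest values, 0.65, 0.67 and 0.72, join ENSCAFG00000014049, ENSCAFG00000000751 and ENSCAFG00000009884, and the row of ENSCAFG00000008537 is near 0.

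The level in CAS was then compared with the level in normal stroma of the same dog, as 5 relations. The rule had fixed CAS below normal stroma within each dog, and permuting the dogs breaks that pairing. The permutation p-values of these 5 relations are therefore descriptive only. ENSCAFG00000005887 had r = 0.76 (permutation p = 0.00161, adjusted 0.00805), and r was 0.74 without dogs 128 and 136 (adjusted permutation p = 0.0341) and 0.67 to 0.82 when any 1 dog was left out. However, rho was 0.45 (permutation p = 0.0935, adjusted 0.451), and r fell to 0.36 without the 2 dogs farthest from the median, so the relation rests on those dogs. For the other 4 genes r was between 0.04 and 0.30, with adjusted permutation p of 0.679 or more. Correlations with the age of the dog, the age of the tissue block and the library total, 30 relations in all, gave r between -0.54 and 0.27. Of these, 0 had an unadjusted permutation p below 0.05, and the lowest adjusted permutation p was 0.942. For the library total in normal stroma only the 13 deeper libraries were used. In the libraries left out, ENSCAFG00000000751 had a log2 CPM of 9.66 (dog 128) and 9.28 (dog 136), against a mean of 11.1 in the 13. A relation to totals that low was not tested.

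Over all 30 libraries, the genes whose pattern was most like each of the 5 were found by Spearman's rho among the 10471 other genes tested; because these libraries differ in stroma, rho reflects the fall from normal stroma to CAS as well as the differences between dogs, and it is a description. For ENSCAFG00000014049 the closest gene was ENSCAFG00000000751 (rho = 0.93), followed by ENSCAFG00000016192 (rho = 0.93), and for ENSCAFG00000000751 it was ENSCAFG00000014049, followed by ENSCAFG00000005096 (rho = 0.90). ENSCAFG00000005887 was also closest to ENSCAFG00000000751 (rho = 0.86). ENSCAFG00000008537 was closest to ENSCAFG00000016192 (rho = 0.88), and ENSCAFG00000009884 to ENSCAFG00000024786 (rho = 0.93). ENSCAFG00000016192 and ENSCAFG00000024786 are themselves among the 35 genes lower in CAS in all 15 dogs.

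Neuter status was not used to choose the genes, and it was tested within each stroma with edgeR over all genes. In normal stroma, 58 of 10051 genes (0.577%) differed between neutered and other dogs at an FDR below 0.05, 56 of them higher in neutered dogs, and 0 of the 5 genes were among them. Neuter label and library total went together in normal stroma. Totals were at most 1365123 counts (dog 137) in neutered dogs. In the other dogs they were at least 2503672 (dog 121), except in dog 128 with 29284. Neuter status and depth therefore cannot be told apart here, and depth was not a term in the fit. The values of ENSCAFG00000009884 in normal stroma were 114 to 881 CPM with a median of 360 in 6 neutered dogs and 54.9 to 432 CPM with a median of 197 in the other 9, a log2 difference of 1.11 (95% interval 0.22 to 2.0, adjusted p = 0.612 in edgeR's quasi-likelihood test). Those of ENSCAFG00000005887 were 131 to 536 CPM (median 267) and 27.4 to 349 CPM (median 178), a log2 difference of 0.91 (95% interval 0.11 to 1.71, edgeR adjusted p = 0.685). The groups overlapped for both genes. The low ends of these ranges came from the shallow libraries. In the other 9 dogs they were those of dog 128, with 4 counts of ENSCAFG00000009884 and 2 of ENSCAFG00000005887. In neutered dogs they were those of dog 136, with 7 and 8 counts in the same order. A two-sided exact permutation test over dogs gave p = 0.106 for the first and p = 0.0677 for the second, neither of them adjusted.

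The remaining 3 genes had log2 differences between neutered and other dogs of -0.50 (95% interval -1.55 to 0.54) for ENSCAFG00000008537, 0.04 (-0.82 to 0.89) for ENSCAFG00000014049 and 0.29 (-0.42 to 0.99) for ENSCAFG00000000751 in normal stroma.

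In CAS, 0 of 11634 genes (0%) differed by neuter status at an FDR below 0.05, with 557 at an unadjusted p below 0.05 and 0 by DESeq2 also. ENSCAFG00000009884 ranged from 0 to 170 CPM with a median of 12.5 in neutered dogs and from 3.57 to 14.4 CPM with a median of 8.07 in the others, so the neutered dogs held both the lowest and the highest values. Its fitted log2 difference of 2.39 (95% interval 0.69 to 4.10, edgeR adjusted p = 0.848) was 0.98 without dog 137. A two-sided exact permutation test on log2 CPM gave a difference of 0.35 (p = 0.738). For the other 4 genes the log2 difference was between -1.06 and 0.97, with edgeR adjusted p-values of 0.970 or more.

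Subtype was tested in the same way between 8 tubular carcinomas and 7 of other subtypes. In normal stroma, 0 of 9609 genes (0%) differed at an FDR below 0.05, with 216 at an unadjusted p below 0.05 and 1 gene by DESeq2, and the 5 genes had log2 differences between -0.86 and 0.27. In CAS, 0 of 11322 genes (0%) differed, with 371 at an unadjusted p below 0.05 and 2 genes by DESeq2.

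ENSCAFG00000009884 in CAS showed the widest gap between subtypes of the 5 genes. It had 2.74 to 170 CPM with a median of 12.5 in tubular carcinomas and 0 to 8.45 CPM with a median of 4.27 in the others, a log2 difference of 2.86 (95% interval 1.14 to 4.57). The gene was 8th of 11322 by p-value, but its adjusted p was 0.999 in edgeR's quasi-likelihood test and 0.208 in DESeq2, and without dog 137 the difference was 1.77. On log2 CPM the difference was 2.03, with a two-sided exact permutation p of 0.0241 that is not adjusted for the number of genes or comparisons. For ENSCAFG00000005887 in CAS the levels were 0 to 47.9 CPM (median 20.3) in tubular carcinomas and 0.893 to 16.9 CPM (median 8.29) in the others, a log2 difference of 1.54 (95% interval 0.19 to 2.89, edgeR adjusted p = 0.999; exact permutation p = 0.202). Neuter status and subtype overlapped, since 4 of the 6 neutered dogs had tubular carcinomas, and their parts in these values were not tested separately.

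**Figure D5:**
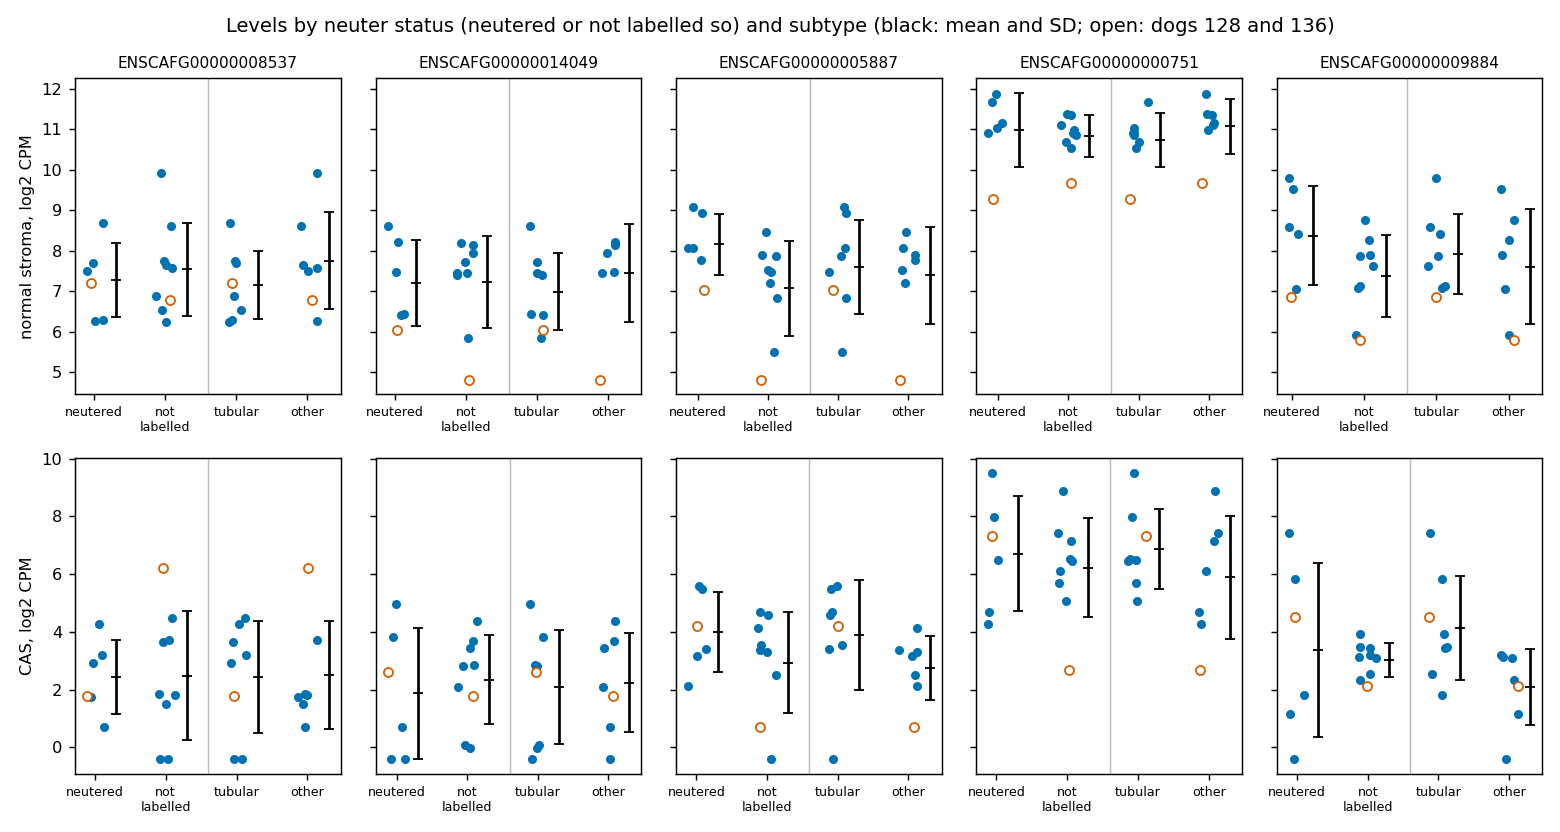
Log2 CPM of the 5 genes in normal stroma (top) and CAS (bottom), grouped by neuter label (6 neutered and 9 not labelled so) and by subtype (8 tubular and 7 other); each point is 1 dog, black marks are mean and SD, and open circles are dogs 128 and 136. The groups overlap in every panel, and in CAS the highest point of ENSCAFG00000009884, dog 137, belongs to both the neutered and the tubular group.

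Whether the fall from normal stroma to CAS differed between groups of dogs was tested as an interaction, with a term for each dog, in edgeR. The rule kept only genes that fell in every dog, so a gene with no fall in a group could not be a member. For the 5 genes the interaction therefore compares only the size of a fall whose direction was fixed by the choice. For neuter status, 0 of 10472 genes (0%) passed an FDR of 0.05, with 560 at an unadjusted p below 0.05 and 3 genes by DESeq2. For subtype, 0 of 10472 genes (0%) passed, with 196 at an unadjusted p below 0.05 and 0 by DESeq2. None of the 5 genes passed in either. The residual level of ENSCAFG00000005887 was 0 to 20.3% with a median of 9.02% in tubular carcinomas and 1.35 to 7.10% with a median of 3.26% in the others (log2 difference of the fold change 1.17, 95% interval 0.12 to 2.22, edgeR adjusted p = 1.0). That of ENSCAFG00000009884 was 0.310 to 44.6% (median 7.64%) in tubular carcinomas and 0 to 13.1% (median 2.74%) in the others, a log2 difference of 1.87 (95% interval -0.04 to 3.79, edgeR adjusted p = 1.0). For neuter status the log2 differences of the 5 genes were between -0.35 and 0.39, and each 95% interval took in at least the stretch from -1.36 to 1.20.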

How the data were processed

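RNA from LCM isolates of 15 dogs was sequenced as 30 libraries. The authors quantified reads with kallisto 0.44.0 against CanFam3.1 transcripts, per the submitters' processing notes and the study's methods, summed them per gene and deposited estimated counts without normalisation; 0 values hold a fraction, and the estimation splits reads between near-identical genes. Groups were taken from the labels. From these counts, filterByExpr and TMM scaling of edgeR 4.0.16 in R 4.3.3 gave 10472 genes tested. CAS and normal stroma were fitted with edgeR's quasi-likelihood method and 6 surrogate variables (sva 3.50.0, 20 permutations), as a description of the chosen genes. Neuter status and subtype were tested with edgeR within each stroma, with the filter applied anew, and as interactions with the dog as block, at a Benjamini-Hochberg FDR below 0.05. Intervals of a CAS level are exact binomial intervals conditional on the summed count. Correlations used 100000 permutations (scipy 1.17.1), and p-values adjusted over 20, 5 and 30 relations.

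The genes named are the 5 chosen ones, the genes most like each by Spearman's rho and the gene just outside the list. Members and lists were chosen with earlier results of these data known. Libraries are paired because each dog gave both stromas; deviations from the group means correlated with a mean of 0.129 within dogs (0.0144 to 0.302) and -0.00773 between dogs. The edgeR comparisons were also run on simulated counts, in which the 2 libraries of a dog shared no level of their own. The CAS against normal stroma fit was run there without surrogate variables. The correlations were not tried on simulated counts. Alternatives were DESeq2 1.42.0, its size factors, other filters, prior counts and blocks, and leaving out dogs; those for the residual percent were chosen after seeing the data. Depth limits precision: 1 count equals 13.7 CPM in normal stroma of dog 128 and 16.3 CPM in that of dog 136, and at most 1.77 CPM in any other library.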

Additional observations from a re-analysis of the deposited data

Results flagged for a closer look

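In groups of dogs by neuter label or by subtype, the highest and lowest log2 CPM of each gene was set against the spread of the group. Of 40 combinations of gene, stroma and group, 6 held a value that stood apart. Chance would give about 2 if these were independent. They are not, since the groups by neuter label and by subtype hold the same dogs, so the 6 cannot be read as an excess. In normal stroma, 5 of the 6 belong to the shallow libraries. ENSCAFG00000000751 was at 9.28 in dog 136, with the nearest other neutered dog at 10.90, and at 9.66 in dog 128, which stood apart both among the dogs not labelled neutered and among subtypes other than tubular. In dog 128, ENSCAFG00000014049 and ENSCAFG00000005887, with 2 counts each, were both at 4.82, with the nearest dogs of other subtypes at 7.44 and 7.21. In CAS, ENSCAFG00000005887 was at -0.41 in dog 126, a library of 2502611 counts in which it had 0 counts, with the nearest tubular carcinoma at 3.40.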

How the results depend on the processing

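The log2 fold changes of the 5 genes kept their direction under all alternatives run, and with the dog as a replicate block they were -5.08, -5.13, -4.17, -4.47 and -4.55 in the order ENSCAFG00000008537, ENSCAFG00000014049, ENSCAFG00000005887, ENSCAFG00000000751 and ENSCAFG00000009884. Leaving out 1 dog gave -5.26 to -3.95, -4.86 to -4.36, -4.03 to -3.64, -3.97 to -3.53 and -4.39 to -3.12. Of the counts of genes called, neuter status in normal stroma rose from 58 to 89 with DESeq2 and was 47 to 73 without 1 dog; DESeq2 gave 1 gene for subtype in normal stroma, 2 for subtype in CAS and 3 for the neuter interaction, the neuter interaction gave 1 with no replicate block, and the subtype interaction gave 3 with all genes of at least 1 count. Pairs of genes passing by Pearson's r fell from 4 to 2 without dogs 128 and 136. The block changed no other call. Causes were not tested.

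None of the differences between dogs passed the threshold in edgeR for the 5 genes, and several changed sign when 1 dog was left out. For neuter status in normal stroma the range was -0.31 to 0.19 for ENSCAFG00000014049 and -0.92 to 0.10 for ENSCAFG00000008537. In CAS it was -0.82 to 0.62 for ENSCAFG00000014049 and -0.22 to 1.37 for ENSCAFG00000000751. For subtype it was -0.34 to 0.55 for ENSCAFG00000009884 in normal stroma, and in CAS -0.68 to 0.59 for ENSCAFG00000014049, -0.96 to 1.18 for ENSCAFG00000008537 and -0.25 to 1.37 for ENSCAFG00000000751. The neuter interaction was -0.15 to 0.80 for ENSCAFG00000008537, -0.95 to 0.43 for ENSCAFG00000014049, -0.29 to 0.28 for ENSCAFG00000005887, -0.22 to 1.02 for ENSCAFG00000000751 and -1.44 to 0.60 for ENSCAFG00000009884. The subtype interaction was -0.18 to 0.70 for ENSCAFG00000014049. With no replicate block the neuter interaction was -0.52 for ENSCAFG00000008537, 0.13 for ENSCAFG00000014049, 0.068 for ENSCAFG00000005887 and 1.29 for ENSCAFG00000009884, and without dogs 128 and 136 it was -0.42 for ENSCAFG00000000751. For ENSCAFG00000014049, the exact permutation test gave -0.021 and -0.46 for neuter status in normal stroma and CAS and -0.15 for subtype in CAS, and the fit with all genes of at least 1 count gave -0.022 in normal stroma. The r of ENSCAFG00000008537 with ENSCAFG00000000751 in CAS was 0.016 with a prior count of 0.5 and 0.45 without dogs 128 and 136, where the r of ENSCAFG00000014049 in normal stroma was -0.32 with ENSCAFG00000005887 and -0.13 with ENSCAFG00000009884.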
